A study of Mus musculus with 10 samples.

Results

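The genes of central carbon metabolism were followed in lymph node T cells: 42 genes of glucose and lactate transport, glycolysis, pyruvate entry into mitochondria, the pentose phosphate pathway and the tricarboxylic acid (TCA) cycle. They were named by pathway membership, and each was read from the array probe set that the platform annotation assigned to that gene alone, taking the set with the highest mean over the 10 arrays where a gene had several. Of the 42 genes, 36 had such a probe set, among 30098 genes measured in all. Gapdh and Tkt were listed only on probe sets that name several genes, and no probe set was listed for Gpi1, Eno1, G6pdx or Mpc2, so these 6 were not analysed here. By role, the 36 genes were 4 of transport, 12 of glycolysis, 4 of pyruvate entry, 4 of the pentose phosphate pathway and 12 of the TCA cycle.

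Glycolysis breaks glucose down to pyruvate in the cytosol, and the pentose phosphate pathway branches from it to make NADPH and ribose. Pyruvate is either reduced to lactate and exported, or imported into mitochondria, where the pyruvate dehydrogenase complex turns it into acetyl-CoA for the TCA cycle. In T cells, activation and IL-2 signaling raise glucose uptake and glycolysis, whereas naive T cells and many regulatory T (Treg) cells lean on mitochondrial oxidation.

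The samples were CD4+ T cells flow-sorted from lymph nodes of female C57BL/6 mice aged 6 to 8 weeks, kept pathogen-free and not treated. Every mouse, controls included, carried a Foxp3-RFP reporter, in which the Treg transcription factor Foxp3 drives red fluorescent protein. WT mice were compared with Il2ramut/mut mice, which carry a point mutation in the alpha chain of the IL-2 receptor, CD25, in all their cells. RNA of 50000 RFP+ Treg or RFP negative conventional T (Tconv) cells went onto each array, giving 3 WT Treg, 3 Il2ramut/mut Treg, 2 WT Tconv and 2 Il2ramut/mut Tconv arrays. By the study's methods the Tconv gate took naive cells that were CD62L high, CD44 low and CD25 negative, so Treg and Tconv cells differed in activation state as well as in lineage. According to the design text each genotype had 2 or 3 mice, and arrays of the same group were treated as different animals because the study plots them so.

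Signals are given on the log2 scale as deposited, so a difference of 1 is a doubling. A gene was called where limma's moderated test, fitted over all 10 arrays and 65956 transcript probe sets, gave a Benjamini-Hochberg adjusted p under 0.05. Background on each array was set at the 95th percentile of 23 control probe sets that match no mouse transcript. It lay between 4.98 and 5.54, and array medians lay between 4.97 and 5.13. Arrays of a group correlated at 0.995 to 0.996 across probe sets. The Il2ra allele is a point mutation, so the Il2ra transcript level does not check the genotype labels. The cell type labels were checked with 8 Treg markers, whose mean signal lay between 13.59 and 13.82 on Treg arrays and between 7.14 and 7.29 on Tconv arrays, and all 8 passed the test in both genotypes. The mean of 7 general T cell markers lay between 13.85 and 13.95 on all arrays. Single markers of this list still differed: 1 was called higher and 1 lower in WT Treg than in WT Tconv cells. In Il2ramut/mut mice 1 was called higher and 2 lower. Of 2 CD8 T cell markers, Cd8a was at background on all arrays and Cd8b1 was above it on all 10. Of 9 B cell markers, 7 were at background on all arrays (Ms4a1, Cd79a, Pax5, Blnk, Fcer2a, Cr2 and Ebf1), while Cd79b and Ighm were above it on all 10. The whole list had a mean of 6.23 to 6.35 on Treg and 6.02 to 6.07 on Tconv arrays. Of 10 myeloid markers 3 were at background on all arrays (Csf1r, Adgre1 and S100a8), and the mean of the list was 5.08 to 5.25 on Treg and 5.26 to 5.37 on Tconv arrays.

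Of the 36 genes, 35 were above background on all 10 arrays. Hk2, the inducible hexokinase isozyme, was above background on none, with signals from 4.59 to 4.92, and no fold is given for it. In RNA of sorted bulk cells, fewer cells that express a gene and less of its RNA per cell cannot be told apart. Many genes of glycolysis have processed pseudogenes of near-identical sequence, and how far the probes separate them was not given in the sources used here. Pgk1 was the 1 gene of the 36 with a pair of probe sets of its own. The one with the higher mean carried a chromosome 12 identifier although the gene lies on chromosome X, so its values are given beside those of the probe set with the X identifier.

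The clearest differences in these pathways lay between Treg and Tconv cells. In both genotypes, Treg cells had higher signals of the glucose transporter gene Slc2a3, the glycolytic enzyme gene Tpi1 and the cytosolic malate dehydrogenase gene Mdh1, and lower signals of the pyruvate dehydrogenase kinase gene Pdk1 and the mitochondrial isocitrate dehydrogenase gene Idh2. These 5 genes were called in both genotypes. The genotypes share no arrays, but both tests use the same estimate of a gene's spread, so the calls are not fully independent. Rpia was called in WT cells alone and Sdha in Il2ramut/mut cells alone, and the remaining 29 genes were called in neither. In WT mice 4 of the 36 genes were higher and 2 lower in Treg cells, or 16.7%, against 7.89% of all 65956 probe sets (4.37% higher and 3.52% lower). In Il2ramut/mut mice 3 were higher and 3 lower, again 16.7%, against 11.3% of all probe sets (5.43% higher and 5.91% lower). Since nearly all of the 36 genes are well expressed, the closer comparison is with the 13661 probe sets that name 1 gene and were above background on all arrays. Of those, 18.3% were called in WT and 23.4% in Il2ramut/mut mice, so the share of metabolic genes called did not exceed that of expressed genes in general. The median difference over the 36 genes was 0.12 in WT and 0.13 in Il2ramut/mut mice, against -0.08 over all probe sets in both. Over probe sets above background on all arrays the median was -0.05 and -0.06. The number higher in WT Treg cells fell from 4 to 2 without WT Treg replicate 1, WT Treg replicate 3 or WT Tconv replicate 2. The number higher in Il2ramut/mut Treg cells went from 3 to 5 without Il2ramut/mut Treg replicate 3. Slc2a3, Tpi1, Pdk1 and Idh2 were called in each of the 12 alternative limma fits run in both genotypes. The criterion in the study's methods, a 1.5-fold change with p not above 0.01 before adjustment in a one-way comparison, was met by 0 genes higher and 2 lower in WT Treg cells, against 3.75% of all probe sets. In Il2ramut/mut Treg cells it was met by 2 higher and 2 lower, against 4.77%.

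**Figure D1:**
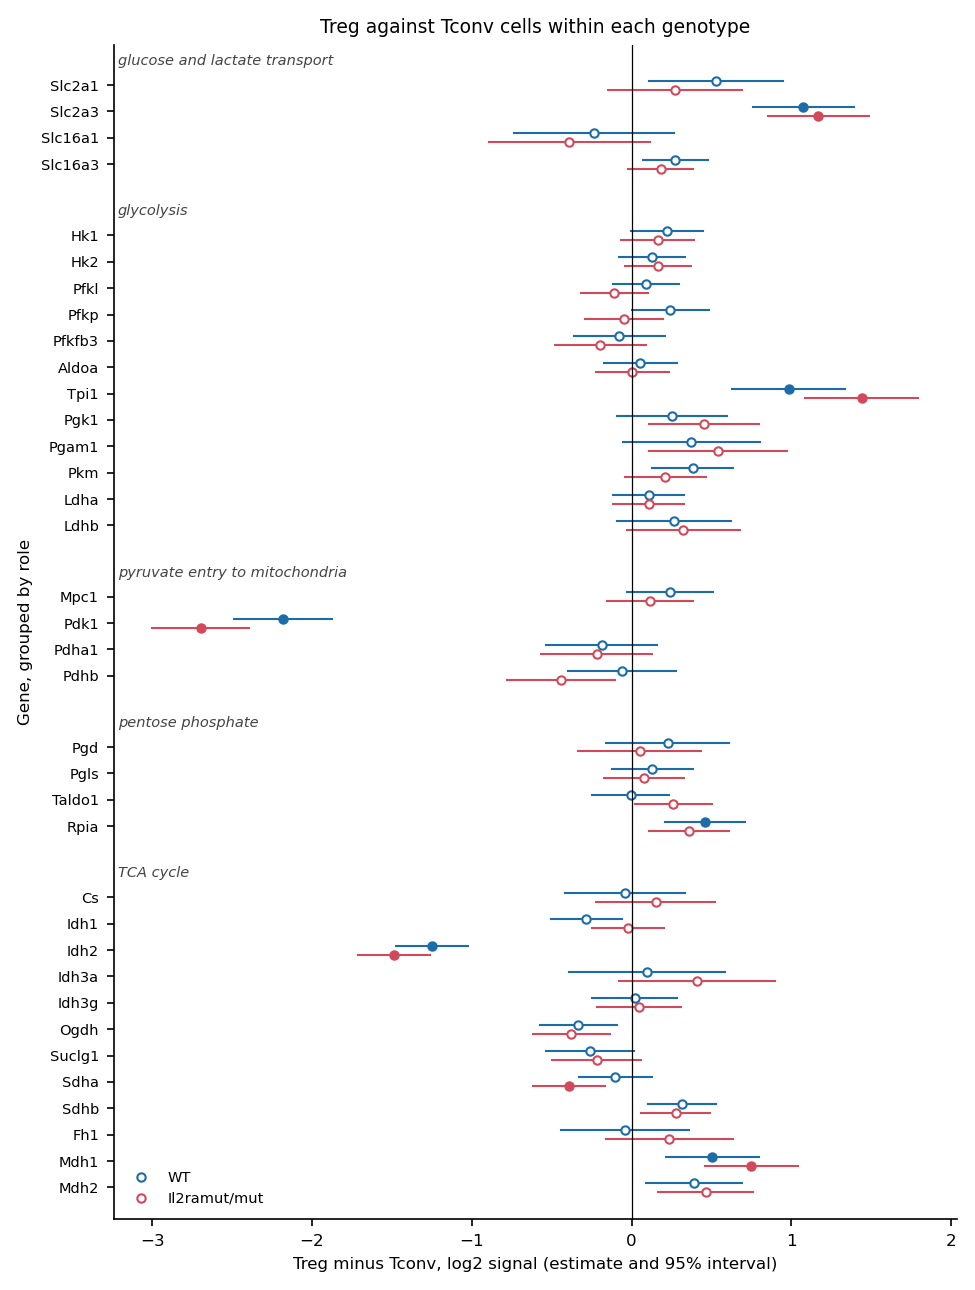
Treg minus Tconv difference in log2 signal for the 36 genes, grouped by role, in WT (blue) and Il2ramut/mut (red) mice. Points are limma estimates, lines their 95% intervals, and filled points were called. Pdk1 and Idh2 lie far to the left and Slc2a3 and Tpi1 to the right in both genotypes, while most other intervals reach or lie near 0. Hk2 was above background on no array.

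Among transporters, Slc2a3 encodes GLUT3, a glucose transporter of high affinity. On WT Treg arrays its signals were 9.59, 9.23 and 9.42, and on WT Tconv arrays 8.51 and 8.16. On Il2ramut/mut Treg arrays they were 9.59, 9.87 and 9.75, and on Il2ramut/mut Tconv arrays 8.55 and 8.59. Each Treg array thus lay above each Tconv array. The difference was 1.07 ± 0.14 (SE) in WT, or 2.11-fold (adjusted p = 0.00105), and 1.17 ± 0.14 in Il2ramut/mut mice, or 2.25-fold (adjusted p = 0.000472). The broadly expressed transporter gene Slc2a1, which encodes GLUT1, differed by 0.53 (95% interval 0.11 to 0.95, adjusted p = 0.138) and 0.27 (-0.15 to 0.69, adjusted p = 0.422). Of the lactate transporter genes, Slc16a3 differed by 0.27 and 0.18 and Slc16a1 by -0.23 and -0.39 in WT and Il2ramut/mut mice, with none called.

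In glycolysis, Tpi1 encodes triosephosphate isomerase, which interconverts the 3-carbon products of aldolase. Its signals were 8.29, 8.70 and 8.73 on WT Treg arrays against 7.47 and 7.72 on WT Tconv arrays. They were 8.73, 8.85 and 8.89 on Il2ramut/mut Treg arrays against 7.55 and 7.22 on Il2ramut/mut Tconv arrays. Treg and Tconv arrays did not overlap in either genotype. The difference was 0.98 ± 0.16, or 1.98-fold, in WT (adjusted p = 0.00363) and 1.44 ± 0.16, or 2.71-fold, in Il2ramut/mut mice (adjusted p = 0.000238). Tpi1 was called alone among the 12 glycolytic genes in both genotypes. The other 11, Hk2 included, ranged from -0.08 for Pfkfb3, whose product sets the level of the phosphofructokinase activator, to 0.38 for the pyruvate kinase gene Pkm in WT mice. In Il2ramut/mut mice they ranged from -0.19 for Pfkfb3 to 0.54 for the phosphoglycerate mutase gene Pgam1. Estimates were positive for 11 of the 12 genes in WT and 9 of 12 in Il2ramut/mut mice, counting Hk2 at background. Of the 25113 probe sets above background on all arrays, naming a gene or not, 10980 were positive in WT and 10904 in Il2ramut/mut mice. The median was 0.23 and 0.16, against -0.08 over all probe sets and -0.05 and -0.06 over those above background on all arrays. Pgk1, the gene of phosphoglycerate kinase, differed by 0.25 (adjusted p = 0.409) in WT and 0.45 (adjusted p = 0.0985) in Il2ramut/mut mice on the chromosome 12 probe set. The chromosome X probe set gave 0.28 (adjusted p = 0.236) and 0.48 (adjusted p = 0.0324), so the call of Pgk1 in Il2ramut/mut mice turned on the probe set. For 7 of the 12 genes in WT and 8 in Il2ramut/mut mice, counting Hk2 at background, the 95% interval lay within a 1.5-fold change either way. Among them was Ldha, the lactate dehydrogenase A gene, at 0.11 (-0.11 to 0.33) and 0.11 (-0.12 to 0.33).

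At the entry of pyruvate into mitochondria, Pdk1 showed the largest difference of the 36 genes. Its product phosphorylates the pyruvate dehydrogenase complex and thereby shuts it off. Pdk1 signals were 8.87, 8.71 and 8.87 on WT Treg arrays against 11.18 and 10.81 on WT Tconv arrays. They were 8.12, 8.18 and 8.00 on Il2ramut/mut Treg arrays against 10.65 and 10.95 on Il2ramut/mut Tconv arrays. The Treg arrays of either genotype thus lay well below all 4 Tconv arrays, and the 3 Il2ramut/mut Treg arrays lay lowest. Treg cells were 4.53-fold lower in WT (-2.18 ± 0.14, adjusted p = 5.84e-06) and 6.48-fold lower in Il2ramut/mut mice (-2.70 ± 0.14, adjusted p = 1.12e-06). The subunit genes of the complex itself were not called. Pdha1 differed by -0.19 and -0.22, and Pdhb by -0.06 in WT and -0.44 in Il2ramut/mut mice (95% interval -0.78 to -0.11, adjusted p = 0.0999). Mpc1, a subunit of the mitochondrial pyruvate carrier, differed by 0.24 and 0.11.

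In the pentose phosphate pathway, Rpia encodes ribose 5-phosphate isomerase, which makes the sugar of nucleotides. Its signals were 6.35, 6.27 and 6.45 on WT Treg arrays against 5.91 and 5.88 on WT Tconv arrays. They were 6.67, 6.56 and 6.33 on Il2ramut/mut Treg arrays against 6.15 and 6.18 on Il2ramut/mut Tconv arrays. Treg arrays were higher without overlap in both genotypes. The difference passed in WT (0.46 ± 0.11, adjusted p = 0.0326) and missed in Il2ramut/mut mice (0.36 ± 0.11, adjusted p = 0.0709), and the test of the difference between the genotypes gave an adjusted p of 0.995. In WT the call of Rpia was lost whichever WT array was left out, with adjusted p from 0.0518 to 0.159. Pgd, Pgls and Taldo1 were called in neither genotype, with differences from -0.01 to 0.23 in WT and from 0.05 to 0.26 in Il2ramut/mut mice.

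TCA cycle genes moved both ways. Idh2 encodes the isocitrate dehydrogenase of mitochondria that uses NADP. Its signals were 7.36, 7.17 and 7.10 on WT Treg arrays against 8.47 and 8.45 on WT Tconv arrays. They were 7.11, 7.09 and 7.04 on Il2ramut/mut Treg arrays against 8.50 and 8.63 on Il2ramut/mut Tconv arrays. All 6 Treg arrays lay more than 1 log2 unit below the 4 Tconv arrays. Idh2 was 2.38-fold lower in WT (-1.25 ± 0.10, adjusted p = 3.24e-05) and 2.80-fold lower in Il2ramut/mut Treg cells (-1.49 ± 0.10, adjusted p = 7.76e-06). The cytosolic enzyme of the same reaction, Idh1, differed by -0.28 (adjusted p = 0.137) and -0.02 (adjusted p = 0.923). Idh3a and Idh3g, subunits of the NAD-dependent enzyme of the cycle proper, differed by 0.10 and 0.02 in WT and by 0.41 and 0.05 in Il2ramut/mut mice, with none called.

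Mdh1 encodes the cytosolic malate dehydrogenase of the malate-aspartate shuttle, which carries reducing equivalents into mitochondria. Its signals were 10.09, 10.03 and 10.21 on WT Treg arrays against 9.65 and 9.56 on WT Tconv arrays. They were 10.48, 10.23 and 10.04 on Il2ramut/mut Treg arrays against 9.57 and 9.43 on Il2ramut/mut Tconv arrays. Groups did not overlap, and the difference was 0.51 ± 0.13 in WT (adjusted p = 0.0437) and 0.75 ± 0.13 in Il2ramut/mut mice (adjusted p = 0.00449). The WT call was lost whichever WT array was left out, with adjusted p from 0.0736 to 0.215, while the Il2ramut/mut call held in each of the 12 alternatives run. Mdh2, its mitochondrial counterpart, differed by 0.39 (adjusted p = 0.124) and 0.46 (adjusted p = 0.0555).

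Sdha, the flavoprotein subunit of succinate dehydrogenase, was lower in Il2ramut/mut Treg cells. Its signals there were 10.80, 11.06 and 10.92 against 11.31 and 11.33 on Il2ramut/mut Tconv arrays. In WT cells they were 11.14, 11.06 and 11.12 against 11.29 and 11.12. The groups overlapped in WT but not in Il2ramut/mut cells. The difference was -0.39 ± 0.10 in Il2ramut/mut mice (adjusted p = 0.0357) and -0.10 ± 0.10 in WT (adjusted p = 0.625), and the test between the genotypes gave an adjusted p of 0.823. The call was lost without Il2ramut/mut Treg replicate 1 (adjusted p = 0.103) or 3 (0.0805) and without Il2ramut/mut Tconv replicate 1 (0.124) or 2 (0.138). Sdhb, the iron-sulfur subunit of the same enzyme, pointed the other way, at 0.31 and 0.28 with neither called. Ogdh, which encodes a subunit of the 2-oxoglutarate dehydrogenase complex, differed by -0.33 (adjusted p = 0.106) and -0.38 (adjusted p = 0.0535). Cs, Suclg1 and Fh1 differed by -0.26 to -0.04 in WT and by -0.22 to 0.24 in Il2ramut/mut mice.

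**Figure D2:**
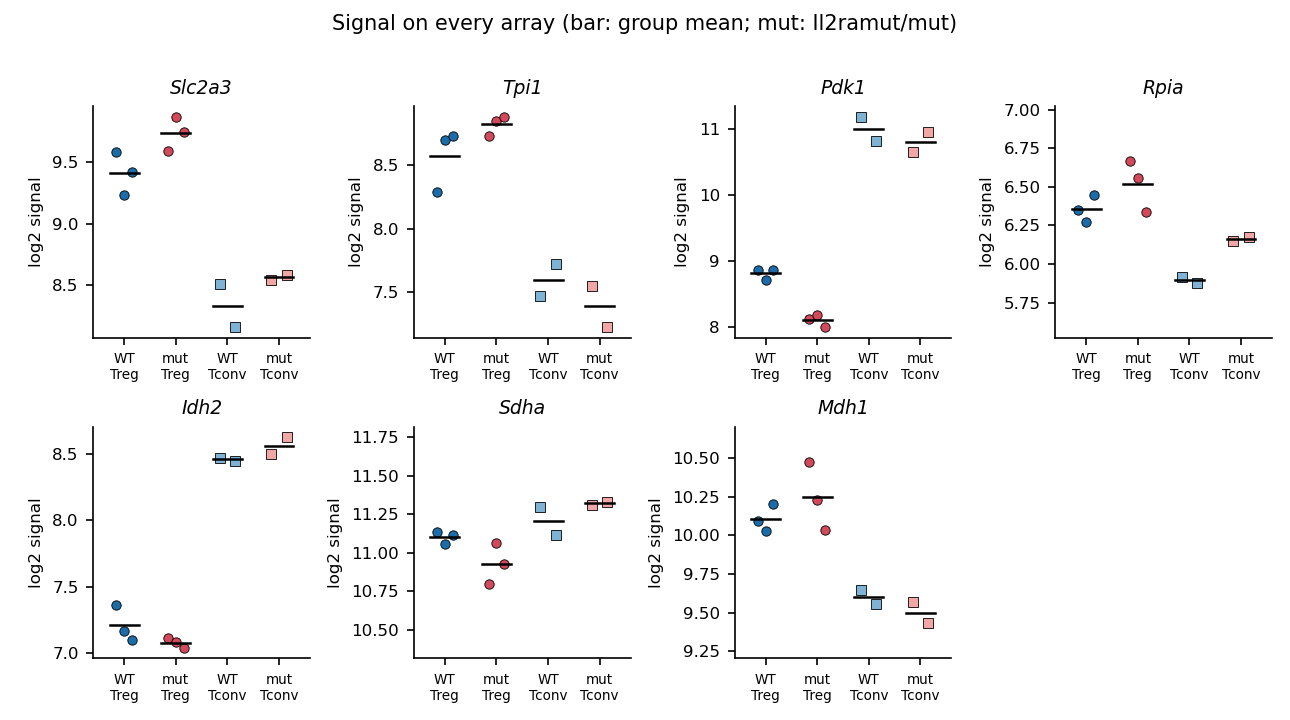
Log2 signal on every array of the 7 genes called in a Treg against Tconv comparison, with circles for Treg arrays, squares for Tconv arrays and bars for group means. Slc2a3, Tpi1, Rpia and Mdh1 are higher and Pdk1 and Idh2 lower on all Treg arrays, and Sdha overlaps between WT Treg and WT Tconv arrays.

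By the arrays alone, 22 of the 36 genes did not overlap between Treg and Tconv cells in WT (17 higher and 5 lower), against 38.2% of all probe sets. In Il2ramut/mut mice it was 23 (15 higher and 8 lower), against 41.9%. Hk2 is counted among those higher in both, although it was at background on all arrays, so its separation is not a measured difference in level. Both percentages are over all probe sets, expressed or not. The share over expressed probe sets that name 1 gene was not computed, so no excess over expressed genes is claimed. Several lists of marker genes also held calls between the same arrays. The 6 naive markers had a mean signal of 11.20 to 11.33 in WT Treg, 10.65 to 10.93 in Il2ramut/mut Treg, 13.93 in both WT Tconv and 13.98 to 14.19 in Il2ramut/mut Tconv arrays, and all 6 were lower in Treg cells of both genotypes. The 11 proliferation markers had a mean of 6.18 to 6.40, 6.83 to 7.14, 5.34 to 5.40 and 5.44 to 5.49 in the same order of groups. Of these 11, Treg cells had 7 higher in WT and 10 in Il2ramut/mut mice, and Birc5 and Bub1 were at background on all arrays. Of the 9 B cell markers, Cd79b (1.43 in WT and 1.64 in Il2ramut/mut mice) and Ighm (1.07 in WT) were called higher in Treg cells of both genotypes. Of 7 early response and stress genes, 3 were higher in WT Treg cells, Dusp1 by 2.92, Egr1 by 0.54 and Ier2 by 0.40, while in Il2ramut/mut mice 1 was higher, Egr1, and 2 were lower, Fos and Jun. Treg cells had 1 of 10 myeloid markers lower in WT and 2 lower in Il2ramut/mut mice. Pecam1, listed among 6 stromal markers, was lower in both. It was the only 1 of the 6 above background on all arrays, at 10.53 to 12.95, so its difference is not read as one in stromal cells. The part of these genes, of activation state or of dividing cells in the metabolic differences was not tested.

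Pairs of related genes were compared within each array, which removes a shift common to the array. The quantity was the difference in log2 signal between the genes of a pair, averaged over genotypes and compared between Treg and Tconv cells by a two-sided exact permutation test within genotype, whose smallest possible p is 0.02. It shows unequal change, not that either gene was steady, and 6 pairs were tested. Idh1 minus Idh2 differed by 1.21 between Treg and Tconv cells (exact p = 0.02, adjusted p = 0.06). Slc2a1 minus Slc2a3 differed by -0.72 (exact p = 0.02, adjusted p = 0.06). For both pairs, Treg and Tconv arrays did not overlap. Slc16a1 against Slc16a3 gave -0.54 (exact p = 0.04, adjusted p = 0.08) and Mdh1 against Mdh2 0.20 (exact p = 0.06, adjusted p = 0.09). Ldha against Ldhb, the muscle and heart type lactate dehydrogenases, gave -0.19 (exact p = 0.16, adjusted p = 0.192), and the liver and platelet type phosphofructokinases Pfkl and Pfkp gave -0.11 (exact p = 0.22, adjusted p = 0.22). No pair passed after adjustment over the 6, which the smallest p allows only where several pairs reach it. On quantile normalized values the first 3 pairs named here passed, each with an adjusted p of 0.04.

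**Figure D3:**
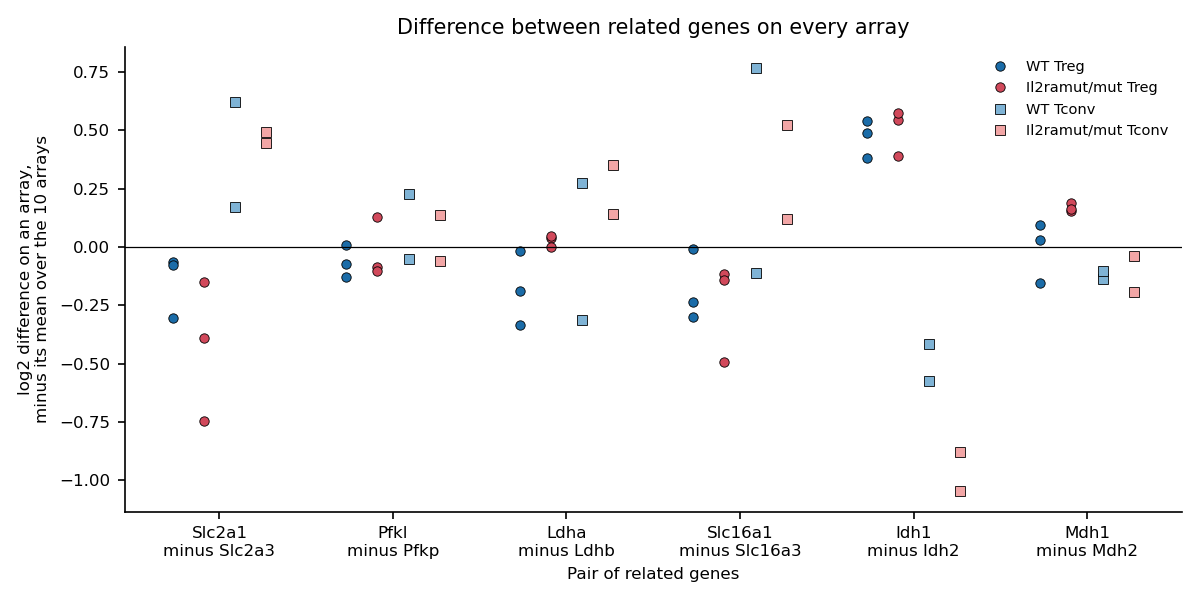
Difference in log2 signal between related genes on each of the 10 arrays, shown minus its mean over the arrays so that probe sets are not compared in level. Treg arrays (circles) and Tconv arrays (squares) separate for Slc2a1 minus Slc2a3 and for Idh1 minus Idh2, and overlap for the other 4 pairs.

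Between genotypes, no gene of these pathways was called. In Treg cells 0 of the 36 genes passed, against 0.373% of all probe sets and 0.747% of expressed probe sets that name 1 gene, and 4 had an unadjusted p under 0.05. Estimates were positive for 18 and negative for 18, with a median of 0.01. For 33 of the 36 genes the 95% interval lay within a 1.5-fold change either way, the exceptions being Pdk1, Slc2a3 and Idh3a. All 12 glycolytic genes were within it, with estimates from -0.12 to 0.25. Hk2 is counted among the 12 and the 33, but it was at background on all arrays, so its interval does not measure a steady level. Arrays of the genotypes did not overlap for 4 genes (Slc2a3, Pgk1 and Taldo1 higher, Pdk1 lower), against 16.8% of all probe sets, expressed or not.

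Pdk1 came closest to a call in Treg cells. The WT signals of 8.71 to 8.87 lay above the Il2ramut/mut signals of 8.00 to 8.18, a 1.64-fold lower level in Il2ramut/mut cells (-0.71 ± 0.12, 95% interval -0.99 to -0.44), and its adjusted p of 0.0502 lay just outside the threshold. It passed with quantile normalization (adjusted p = 0.0373), with the Treg arrays alone (0.0473), with dim probe sets left out (0.0389) and on probe sets naming 1 gene (0.0245). It also met the methods' criterion, as did 0.585% of all probe sets. Over the 13 alternatives the adjusted p ran from 0.0245 to 0.174 and the difference from -0.77 to -0.66.

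Taldo1, the gene of transaldolase in the pentose phosphate pathway, had the next lowest p. Its signals were 9.49, 9.49 and 9.54 on WT and 10.02, 9.81 and 9.68 on Il2ramut/mut Treg arrays. The groups did not overlap, with a difference of 0.33 ± 0.10 (adjusted p = 0.273). Slc2a3 differed by 0.33 ± 0.13 (adjusted p = 0.442), with Il2ramut/mut arrays from 9.59 to 9.87 and WT arrays from 9.23 to 9.59. The lowest Il2ramut/mut array lay just above the highest WT array. Idh3a had the largest positive estimate, 0.47 (95% interval 0.04 to 0.91, adjusted p = 0.469), with overlapping arrays. On the same arrays 4 of 11 proliferation markers were called higher in Il2ramut/mut Treg cells and 1 of 6 naive markers, Igfbp4, was called lower. Their part in the estimates above was not tested.

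In Tconv cells 0 of the 36 genes were called, against 0.00303% of all probe sets, and 1 had an unadjusted p under 0.05. That gene was Idh1, with signals of 6.77 and 6.59 on WT and 6.34 and 6.30 on Il2ramut/mut arrays. The groups did not overlap, and the difference was -0.36 ± 0.11 (95% interval -0.61 to -0.12, adjusted p = 0.552). Rpia was at 5.91 and 5.88 in WT and at 6.15 and 6.18 in Il2ramut/mut cells (0.27 ± 0.12, adjusted p = 0.713). Pfkp, the platelet type phosphofructokinase, was at 9.88 and 9.61 in WT and at 9.99 and 9.97 in Il2ramut/mut cells (0.24 ± 0.12, adjusted p = 0.743). The mutant arrays lay above the WT arrays for both genes. The methods' criterion was met by 0 of the 36 genes and 0.105% of all probe sets. With 2 arrays a group, 15 of the 36 genes did not overlap (12 higher and 3 lower), against 32.9% of all probe sets, expressed or not. The intervals of 27 genes, counting Hk2 at background, lay within a 1.5-fold change either way. Of 7 early response and stress genes, all 7 had positive estimates in Il2ramut/mut Tconv cells with 0 called, and their mean signal was 5.78 to 6.14 on WT and 6.80 to 6.83 on Il2ramut/mut arrays. Their part was not tested.

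The test of whether the genotype difference itself differed between Treg and Tconv cells called 0 of the 36 genes, against 0.00152% of all probe sets, and 1 had an unadjusted p under 0.05. The lowest p was that of Pdk1, at -0.52 (95% interval -0.95 to -0.09, adjusted p = 0.686), followed by Tpi1 at 0.46 (-0.04 to 0.96, adjusted p = 0.814) and Sdha at -0.29 (-0.61 to 0.03, adjusted p = 0.823). Intervals were wide here: those of 21 of the 36 genes, counting Hk2 at background, lay within a 1.5-fold change either way.

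**Figure D4:**
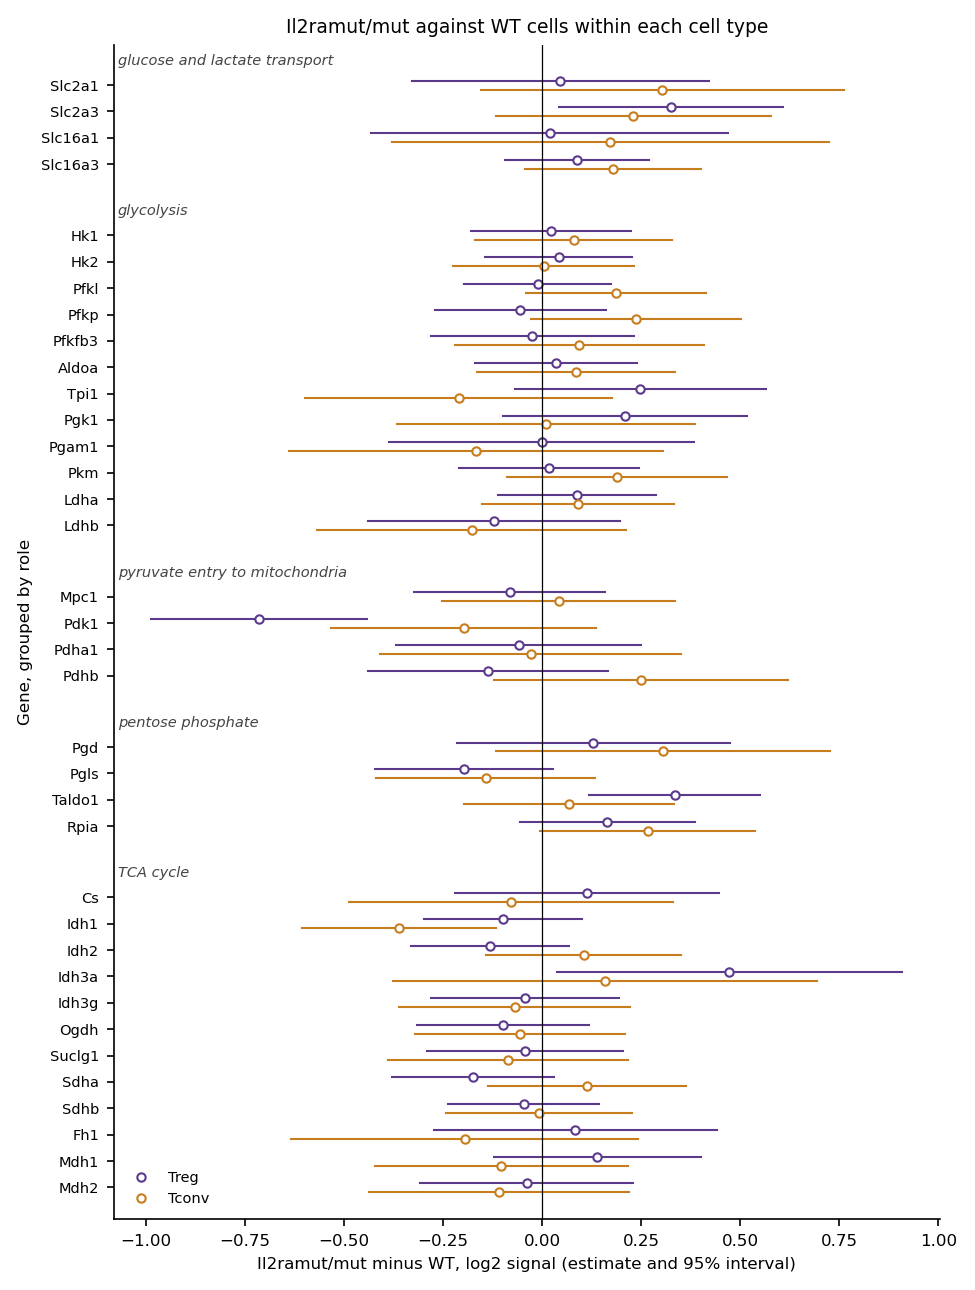
Il2ramut/mut minus WT difference in log2 signal for the 36 genes, grouped by role, in Treg (purple) and Tconv (orange) cells. Points are limma estimates and lines their 95% intervals, all points are open because no gene was called, and Pdk1 in Treg cells lies farthest from 0.

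Further enzymes and regulators of the same pathways, 92 genes listed apart from the 36, were also called between cell types and not between genotypes. In WT mice 13 were higher and 9 lower in Treg cells (23.9%), against 7.89% of all probe sets and 18.3% of expressed single-gene probe sets. In Il2ramut/mut mice 15 were higher and 7 lower (23.9%), against 11.3% and 23.4%. The 92 genes were not filtered for expression and some were at background on all arrays, so neither share is a fully like comparison. By genotype, 0 were called in Treg cells, in Tconv cells or in the test between them. Of the 59 enzymes, 7 rose and 5 fell in WT (20.3%) and 8 rose and 3 fell in Il2ramut/mut Treg cells (18.6%). Of the 33 regulators, 6 rose and 4 fell in WT (30.3%) and 7 rose and 4 fell in Il2ramut/mut Treg cells (33.3%). The largest difference was that of Irf4, a transcription factor of antigen receptor signaling, which was higher in Treg cells by 3.92 ± 0.16 in WT (adjusted p = 2.46e-07) and by 4.22 ± 0.16 in Il2ramut/mut mice (adjusted p = 1.36e-07). Arrdc4, a target of glucose-sensing transcription factors whose product is related to the uptake inhibitor Txnip, was called higher in WT Treg cells (adjusted p = 0.000129), at 7.17 to 7.89 on WT Treg arrays against 4.95 and 5.10 on WT Tconv arrays, of which 1 of 2 was above background. It was at background on both Il2ramut/mut Tconv arrays and was at least 3.80-fold higher in Il2ramut/mut Treg cells (adjusted p = 0.000154). That bound sets the mean of the Treg arrays against the background of the Tconv arrays.

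Mxd4, a repressor that competes with Myc for its partner Max, was higher by 2.11 ± 0.11 in WT Treg cells (adjusted p = 1.43e-06). Egln3, an oxygen-dependent hydroxylase that marks HIF for degradation and is itself induced by HIF, was higher by 1.95 ± 0.20 and 2.05 ± 0.20 (adjusted p = 0.000169 and 0.000101). Pik3ip1, an inhibitor of PI3 kinase, was lower by 2.18-fold in WT (adjusted p = 0.0148) and by 5.58-fold in Il2ramut/mut Treg cells (adjusted p = 7.78e-05). The remaining regulators named here were chosen after their values were seen. Hif1a, the oxygen-regulated transcription factor that drives glycolytic genes, was at 12.67 to 13.07 on the 6 Treg and at 10.88 to 10.93 on the 4 Tconv arrays. It was 3.79-fold higher in WT (adjusted p = 9.92e-06) and 3.95-fold higher in Il2ramut/mut Treg cells (adjusted p = 6.63e-06). Epas1, the gene of a related HIF subunit, went the other way. Its signals were 5.58 to 5.75 on WT Treg and 6.12 to 6.39 on Il2ramut/mut Treg arrays. On the 4 Tconv arrays they were 6.87 to 7.47. Myc was higher by 0.64 and 0.50 (adjusted p = 0.0183 and 0.046).

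The kinases of pyruvate dehydrogenase differed in direction, and the enzymes beside Pdk1 and Mdh1 in this paragraph were likewise chosen after their values were seen. Pdk3 was at 9.21 to 9.36 on the 6 Treg and at 7.97 to 8.32 on the 4 Tconv arrays. It was higher by 0.99 ± 0.09 in WT (adjusted p = 0.000111) and by 1.23 ± 0.09 in Il2ramut/mut Treg cells (adjusted p = 1.99e-05), whereas Pdk1 was lower. Pdk2 differed by 0.47 (adjusted p = 0.132) and 0.26 (adjusted p = 0.37), and Pdk4 was at background on all arrays. Gpd2, the mitochondrial glycerol 3-phosphate dehydrogenase, was lower in Treg cells, at -1.31 ± 0.18 and -1.60 ± 0.18 (adjusted p = 0.00117 and 0.000238). Got2, the mitochondrial transaminase of the malate-aspartate shuttle to which Mdh1 belongs, was higher by 0.83 ± 0.13 and 1.00 ± 0.13 (adjusted p = 0.00326 and 0.000776). Other shuttle genes were less clear. Got1, the cytosolic transaminase, overlapped between Treg and Tconv arrays in both genotypes. Slc25a11, a carrier, overlapped in WT, at 11.34 to 11.57 against 11.39 and 11.45. In Il2ramut/mut mice it was at 11.21 to 11.52 on Treg against 11.06 and 11.05 on Tconv arrays. Me2, a mitochondrial malic enzyme, was lower, at -0.99 ± 0.10 and -1.32 ± 0.10 (adjusted p = 0.000142 and 1.56e-05).

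**Figure D5:**
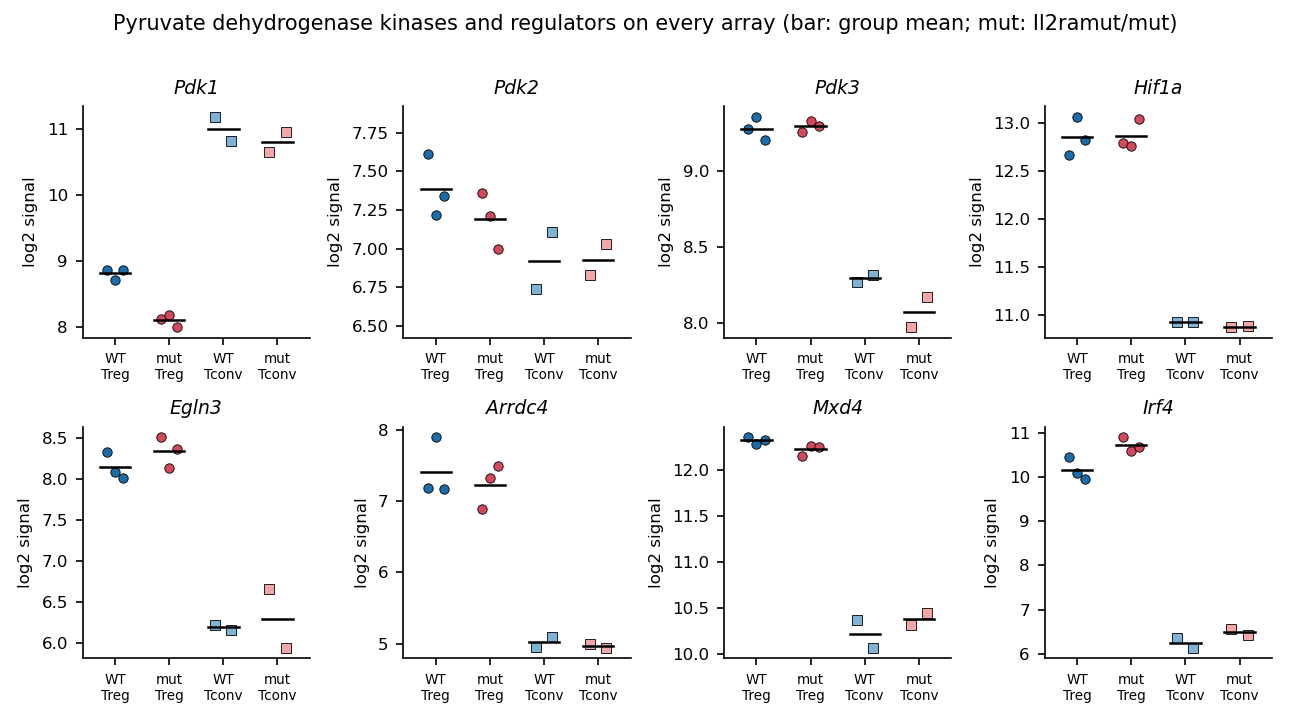
Log2 signal on every array of Pdk1 and its relatives Pdk2 and Pdk3 and of the regulators Hif1a, Egln3, Arrdc4, Mxd4 and Irf4, with circles for Treg arrays, squares for Tconv arrays and bars for group means. Pdk3 and the regulators are higher and Pdk1 lower on all Treg arrays, and Pdk2 is not called.

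HIF and Myc family factors bind DNA that holds ACGTG and CACGTG respectively, so these letters were looked for in the 250 bases before each RefSeq start (GRCm38.p6). The set of starts used here held 34 of the 36 genes, with 49 starts. Of these genes 10 had several starts, whose windows can overlap. ACGTG on either strand, which also counts each CACGTG, was in a window of 15 of the 34 genes (44.1%), against 18.5% of the 27025 genes in the table, and in 22 of 49 windows (44.9%) against 16.57% of 32851. The 15 were Slc2a1, Slc16a1, Slc16a3, Hk2, Pfkfb3, Aldoa, Pgk1, Pgam1, Pkm, Ldha, Pdhb, Idh3g, Ogdh, Sdha and Mdh1. CACGTG alone was in a window of 4 genes (11.8%, against 6.86% of all genes). The STAT spacing TTCNNNGAA, which reads the same on both strands, was in 0 windows, against 7.02% of all windows. A match is a description of the letters, and no match says only that they are not in these windows. The genes compared with are all those in the table, expressed or not, and windows were not matched for base composition. Whether expressed genes in general have shares like those of the 34 was not tested, so no enrichment or lack of a site is claimed. The windows of 5 genes are shown as examples with and without the motif: Ldha carried it and was not called, Mdh1 carried it and was called higher in Treg cells, Sdha carried it and was called lower in Il2ramut/mut Treg cells, and Tpi1 and Pdk1 lacked it and were called in opposite directions. Sequences run 5' to 3' on the strand of the gene and end at the base before its start, with ACGTG on either strand in capitals.
Ldha: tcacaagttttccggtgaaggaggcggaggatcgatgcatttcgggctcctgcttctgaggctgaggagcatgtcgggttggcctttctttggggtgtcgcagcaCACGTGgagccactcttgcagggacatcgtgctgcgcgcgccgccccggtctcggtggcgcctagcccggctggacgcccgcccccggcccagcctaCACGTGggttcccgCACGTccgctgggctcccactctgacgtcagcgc
Mdh1: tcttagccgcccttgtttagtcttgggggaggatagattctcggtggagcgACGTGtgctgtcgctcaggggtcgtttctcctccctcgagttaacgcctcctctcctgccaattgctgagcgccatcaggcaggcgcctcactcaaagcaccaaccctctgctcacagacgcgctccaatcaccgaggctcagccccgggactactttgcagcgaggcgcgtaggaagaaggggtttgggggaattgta
Sdha: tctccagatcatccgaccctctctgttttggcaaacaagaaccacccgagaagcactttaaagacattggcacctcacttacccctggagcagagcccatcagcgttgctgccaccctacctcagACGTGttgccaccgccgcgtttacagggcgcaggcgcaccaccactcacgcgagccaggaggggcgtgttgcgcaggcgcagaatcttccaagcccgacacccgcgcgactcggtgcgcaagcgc
Tpi1: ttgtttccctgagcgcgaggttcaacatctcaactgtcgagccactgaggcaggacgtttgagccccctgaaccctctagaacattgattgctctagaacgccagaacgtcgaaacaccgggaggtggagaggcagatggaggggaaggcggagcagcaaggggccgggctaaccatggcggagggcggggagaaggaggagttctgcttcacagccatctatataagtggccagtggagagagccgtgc
Pdk1: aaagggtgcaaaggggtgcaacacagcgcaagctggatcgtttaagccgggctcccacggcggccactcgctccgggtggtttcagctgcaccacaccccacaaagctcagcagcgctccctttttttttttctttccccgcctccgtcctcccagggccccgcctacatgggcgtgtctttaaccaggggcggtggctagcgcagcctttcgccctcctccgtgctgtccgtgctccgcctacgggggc

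The Ldha window lies on the plus strand at chr7:46845554-46845803, for the first of 2 starts listed, and holds 2 copies of CACGTG and 1 further ACGTG read on the opposite strand. Ldha signals were 10.71 to 10.78 on WT Treg, 10.67 to 10.94 on Il2ramut/mut Treg, 10.58 and 10.67 on WT Tconv and 10.75 and 10.69 on Il2ramut/mut Tconv arrays. The Mdh1 window, on the minus strand at chr11:21571935-21572184, holds 1 ACGTG, at position -199 counted from the start, and the Sdha window, on the minus strand at chr13:74350241-74350490, holds 1 at position -125. The Tpi1 window on the minus strand at chr6:124814159-124814408 and the Pdk1 window on the plus strand at chr2:71872974-71873223, the first of 2 starts listed, hold none. No promoter is shown for Slc2a3.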

How the data were processed

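Gene expression was measured on 10 Affymetrix Mouse Transcriptome Array 1.0 Pico arrays. The authors deposited 1 normalized log2 signal per probe set and array, made with Affymetrix Expression Console 1.4.1.46, with Transcriptome Analysis Console 3.1.0.5 also named in the submitters' processing notes. The log base was read from the range of the values, whose highest is 19.9211. The summarisation of probes and the genome build were not given in the sources used here. After 6732 control probe sets were left out, 65956 were tested with limma 3.58.1 in R 4.3.3 (1 mean per group, 6 residual and 3.54 prior degrees of freedom), with Benjamini-Hochberg adjustment over all 65956 and calls at an adjusted p under 0.05. Of these, 30638 named 1 gene, 2176 several and 33142 none. Scripts were tested on simulated data. The precision is limited by the number of arrays.

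The genes and lists were chosen with earlier results of these data known. Signals on every array are given for genes called in a comparison, and for the 3 of lowest p where none was called. Of other pathway genes, up to the 4 of largest difference among those called in a comparison are named by rule. The further ones, some of them not called, were added after their values were seen. Replicate numbers were not stated to mark a shared mouse, so they were not taken to pair arrays. Deviations of same-numbered arrays from their group means correlated at -0.123 to 0.120. For Treg and Tconv arrays of the same genotype they correlated at 0.084 and 0.072 in WT and at -0.027 and -0.051 in Il2ramut/mut mice.

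The methods' t-test is the study's one-way comparison of 2 groups, called at a 1.5-fold change with p not above 0.01 before adjustment. The alternatives were this test, quantile normalization, probe sets above background on at least 2 arrays, probe sets naming 1 gene, a gene's median probe set, the arrays of the compared groups alone, a trended robust prior (statmod 1.5.0), the replicate number as a block and each array left out. The X chromosome probe set of Pgk1 and a crossed block were added after seeing the data. Promoters are RefSeq windows of GRCm38.p6. Python 3.11.15, numpy 2.4.6, pandas 2.3.3 and matplotlib 3.10.9 were used.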

Additional observations from a re-analysis of the deposited data

How the results depend on the processing

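Of 258 alternative values for 25 results of single genes, 216 kept their direction and side of the threshold, 21 lost a call, 21 gained one and 0 turned direction. The number of genes called lower in Il2ramut/mut than in WT Treg cells went from 0 to 1, Pdk1, with the Treg arrays alone, by the methods' t-test and fold, with dim probe sets left out, on probe sets naming 1 gene and with quantile normalization, and was 0 in each fit without 1 array. The number higher in WT Treg than in WT Tconv cells went from 4 to 0 by the methods' t-test, at its own threshold and after Benjamini-Hochberg, to 2 with a trended robust prior, and to between 2 and 3 without 1 array. The number lower there went from 2 to 0 by the methods' t-test after Benjamini-Hochberg and stayed at 2 without any 1 array. In Il2ramut/mut mice the number higher went from 3 to 0 by that test, to 5 on probe sets naming 1 gene, and to between 3 and 5 without 1 array. Of these changes, fewer tests in the adjustment is part of the 2 probe set filters by construction, and fewer arrays of the fits without 1 array. The cause of the others was not tested. With quantile normalization Slc2a1 minus Slc2a3 was -0.69, Slc16a1 minus Slc16a3 -0.60 and Idh1 minus Idh2 1.23, all with an adjusted p of 0.04 by the exact permutation test. Without 1 array these differences ran from -0.83 to -0.61, from -0.76 to -0.32 and from 1.17 to 1.26.

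The arrays share only a replicate number. With the replicate number as a block, 2 genes were higher in WT Treg cells instead of 4, as Rpia (adjusted p = 0.0697) and Mdh1 (0.0617) lost their call, while in Il2ramut/mut mice Sdha lost its call (0.0921) and Mdh2 gained one (0.0369). Over all probe sets the block left 127 calls instead of 246 between genotypes in Treg cells, 0 instead of 2 in Tconv cells, 4309 instead of 5206 in WT and 6527 instead of 7483 in Il2ramut/mut mice between cell types. With the numbers of the Il2ramut/mut Tconv arrays crossed, 0 probe sets were called between genotypes in Tconv cells, with 4842 at an unadjusted p under 0.05.

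Groups of 2 or 3 arrays were not tested for outlying arrays. Signals near background limit what can be said of Hk2, Pdk4 and, in Tconv cells, Arrdc4.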
